A study of Homo sapiens with 6 samples.

Results

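FOXM1, MYBL2 and the genes of 4 MuvB subunits, LIN9, LIN37, LIN52 and LIN54, were followed in SKOV3, a long-established line of human ovarian carcinoma cells with extra copies of ERBB2. These 6 genes were taken by symbol from a table of 61552 genes, and all 6 passed the filter on low counts, which 17363 genes passed. The cells had received 1 µM fenbendazole, a benzimidazole anthelmintic that binds tubulin, or only the vehicle DMSO for 48 h. Poly(A) RNA was sequenced from 3 libraries per group, named fenbendazole 7, 8 and 9 and DMSO 10, 11 and 12 after their titles. Apart from the drug, the labels give both groups the same line, culture conditions and time, and they do not say that the libraries came from separate cultures, so the p-values cover the spread between libraries, which may be technical.

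MuvB is a protein complex that binds cell-cycle promoters and changes its role with its partners. In quiescence and G1 it joins a pocket protein (p107 or p130), E2F4 or E2F5 and a DP protein in the repressor complex DREAM. In S phase B-MYB, the product of MYBL2, takes the place of the pocket protein, and FOXM1, a forkhead transcription factor, joins for G2, when the complex activates genes of mitosis. LIN54 carries the DNA-binding domain of MuvB, which recognises the cell-cycle genes homology region (CHR), a short promoter element. LIN52 is the subunit through which MuvB holds either the pocket protein or B-MYB, LIN9 is needed for activation with B-MYB, and LIN37 is known for its part in repression.

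Both activators rose with fenbendazole, 4.14-fold for FOXM1 and 4.81-fold for MYBL2, and the MuvB subunits moved unequally. LIN9, LIN52 and LIN54 were higher in every fenbendazole library than in any DMSO library, at 3.24-fold, 1.76-fold and 1.51-fold, but did not pass the test. LIN37 was low in both groups, and its CPM values overlapped between them. Thus 2 of 6 genes were called higher by edgeR's quasi-likelihood test at a Benjamini-Hochberg adjusted p of 0.05, against 3.11% of all tested genes called higher and 0.921% called lower. Groups that did not overlap were found for 5 of 6 genes and for 32.6% of all tested genes.

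Promoter sequence is shown first, because the MuvB complex is described by the elements it binds. RefSeq promoter entries (GRCh38.p14, 250 bases before to 50 after each listed start) were found for MYBL2, LIN9, LIN37, LIN52 and LIN54. FOXM1 is named only. The CHR was searched with the letters TTTGAA, or with TTCGAA, or with TTTAAA, the CCAAT box as CCAAT and an E2F-type element as GGCGGGA, each on both strands. The last was chosen after the MYBL2 entry had been read. Each window below reads 5′ to 3′ along the gene, with the matched letters in capitals, and the members are shown to compare which element each holds.
MYBL2, GGCGGGA, chr20:43667064-43667092, + strand: ccgacgcgcttGGCGGGAgatagaaaagt
LIN9, TTTGAA, chr1:226309151-226309178, - strand: ggcgggcagccTTTGAAaaagcggcgcg
LIN9, GGCGGGA, chr1:226309251-226309279, - strand: cagccagccgcGGCGGGAgcagcgcagcg
LIN37, TTTGAA, chr19:35748621-35748648, + strand: cgaagctcatcTTTGAActgtccccgcc
LIN52, GGCGGGA read from the other strand, chr14:74084922-74084950, + strand: gaacctcgtttTCCCGCCgacggttggcc
LIN54, TTTGAA, chr4:83010907-83010934, - strand: gcccttgtgcgTTTGAAggttggcgggg
LIN54, GGCGGGA, chr4:83010888-83010916, - strand: gttggcggggcGGCGGGAggcttccccgg

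MYBL2 holds GGCGGGA by the way that motif was chosen. The other 4 genes with an entry each held it at 1 or more listed starts, and 18% of the 27305 genes of the RefSeq table did. A CHR was found in 3 of 5, LIN9, LIN37 and LIN54, against 29% of genes, and a CCAAT box in 2 of 5, LIN37 and LIN52, against 39.7%. LIN9 held 2 CHR matches before the third listed start, TTCGAA beginning 60 bases and TTTGAA 3 bases before it, and the CHR of LIN54 began 100 bases before the first. In MYBL2 no CHR of these letters was found, and its GGCGGGA began 39 bases before the start. A gene with several listed starts has more sequence to match, and a match is a description of letters, not of binding.

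The same search over genes known as targets of B-MYB, MuvB and FOXM1 in G2 and mitosis found a CHR in 30 of the 34 with an entry (88.2%) and a CCAAT box in 29 of 34 (85.3%). GGCGGGA was found in 10 of these 34 (29.4%). Of 15 genes known as E2F and DREAM targets at G1/S, 4 held a CHR (26.7%), 10 a CCAAT box (66.7%) and 10 GGCGGGA (66.7%). Both lists were drawn from genes known for this regulation, so these shares describe the lists. CHR letters were also found in CDC25B, which has several listed starts and did not rise. In CCNA2, which rose, no CHR of these letters was found. Windows of 4 target genes whose values follow are shown, to set beside those of LIN9 and LIN54.
KIF20A, TTTAAA, chr5:138179060-138179087, + strand: gcagcgcgtaaTTTAAAatattgtatct
CKS2, TTTGAA read from the other strand, chr9:89311155-89311182, + strand: gggctgtcggaTTCAAAtccggatcgtt
KIF4A, TTTGAA, chrX:70290059-70290086, + strand: tccgggacggaTTTGAAacttggcggtt
CCNB1, TTTAAA, chr5:69167109-69167136, + strand: gcagtgcggggTTTAAAtctgaggctag

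Library depth ran from 13170775 to 22128930 counts, and levels are in CPM, counts relative to library size with edgeR's TMM factors. Relative to total counts without those factors, 3 counts are worth 0.136 to 0.228 CPM, far below every value of FOXM1 and MYBL2. DMSO 11 stood apart from the other 5 libraries. Its chi-square per degree of freedom was 79.2 against DMSO 10 and 87.2 against DMSO 12, while other replicate pairs gave 4.86 to 8.47. Limma's quality weight was 0.074 for DMSO 11 and 0.964 to 2.36 for the others. The deviation of each gene from its mean rose with GC content in DMSO 11 (Spearman's rho of 0.785 across genes, which are not independent replicates), against -0.442 to -0.184 in the others. Values without this library are given beside the main results that it touches.

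Of the marker lists, the 5 epithelial genes were counted in all 6 libraries, and their summed level was 650.6 to 776.2 CPM with fenbendazole and 662.3 to 1065 CPM with DMSO. The 5 ovarian carcinoma genes summed to 4430 to 4856 CPM with fenbendazole and 8053 to 16237 CPM with DMSO, nearly all of it ERBB2, while WT1 had 5 to 18 counts per library. Within these lists CDH1 (-0.76, adjusted p = 0.0453) and ERBB2 (-1.29, 0.0422) passed edgeR's test as lower, and both calls were lost when any 1 fenbendazole library or DMSO 10 was left out (adjusted p of up to 0.226). Without DMSO 11 both passed, at -0.71 and -0.89. The leukocyte list summed to 14.8 to 17.4 CPM with fenbendazole and 12.4 to 18.6 CPM with DMSO. Nearly all of this was CD68, at 14.4 to 16.1 CPM with fenbendazole and 11.5 to 17.9 CPM with DMSO. CD3E had 0 and PTPRC 0 to 9 counts per library. The fibroblast list summed to 56.2 to 58.7 CPM with fenbendazole and 50.1 to 88.9 CPM with DMSO, most of it COL1A1. For the endothelial list the sums were 13.3 to 14.1 CPM with fenbendazole and 10.4 to 12.3 CPM with DMSO, most of it PECAM1. What part these shifts have in the results was not tested. In bulk RNA, more cells in a phase of the cell cycle and more RNA per cell cannot be told apart.

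FOXM1 (ENSG00000111206) lies on the minus strand at chr12:2857680-2877174 of GRCh38. Its level was 65.7, 68.9 and 71.1 CPM in fenbendazole 7, 8 and 9, against 17.4, 17.6 and 14.5 CPM in DMSO 10, 11 and 12. The highest DMSO library thus stood far under the lowest fenbendazole library, and DMSO 11 was close to DMSO 10. The mean was 68.6 ± 2.69 CPM with fenbendazole and 16.5 ± 1.76 CPM with DMSO (SD, n = 3 each), a log2 fold change of 2.05 ± 0.150 (SE, adjusted p = 0.000893 by edgeR's quasi-likelihood test). FOXM1 passed under all 18 other settings tried, with log2 fold changes of 1.75 to 2.21. It also passed without DMSO 11 (adjusted p = 2.01e-08).

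FOXM1 shares part of its span with RHNO1, a gene of the DNA damage response, over 917 bases, and with ITFG2 over 2112 bases, both on the opposite strand. The labels do not state whether strand was kept, so reads from shared bases cannot be told apart. RHNO1 had 26.7, 31.5 and 33.2 CPM in fenbendazole 7, 8 and 9, against 21.5, 17.9 and 20.2 CPM in DMSO 10, 11 and 12. ITFG2 had 9.67, 10.1 and 12.1 CPM with fenbendazole, against 8.86, 10.4 and 6.77 CPM with DMSO. Neither passed, at log2 fold changes of 0.62 ± 0.168 for RHNO1 and 0.29 ± 0.230 for ITFG2 (SE, edgeR adjusted p = 0.0919 and 0.494). Without DMSO 11 RHNO1 passed (0.00758) and ITFG2 did not.

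MYBL2 (ENSG00000101057) lies on the plus strand at chr20:43667019-43716495, where the table lists no overlapping gene. It had 113, 120.2 and 117 CPM in fenbendazole 7, 8 and 9, against 21.0, 33.9 and 17.6 CPM in DMSO 10, 11 and 12. The fenbendazole libraries lay close together, and DMSO 11 was the highest of the DMSO libraries. The means were 117 ± 3.67 CPM with fenbendazole and 24.1 ± 8.64 CPM with DMSO (SD, n = 3 each), a log2 fold change of 2.27 ± 0.248 (SE, edgeR adjusted p = 0.00392). MYBL2 also passed under all 18 other settings, from 2.09 to 2.62. Without DMSO 11 its log2 fold change was 2.60.

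**Figure D1:**
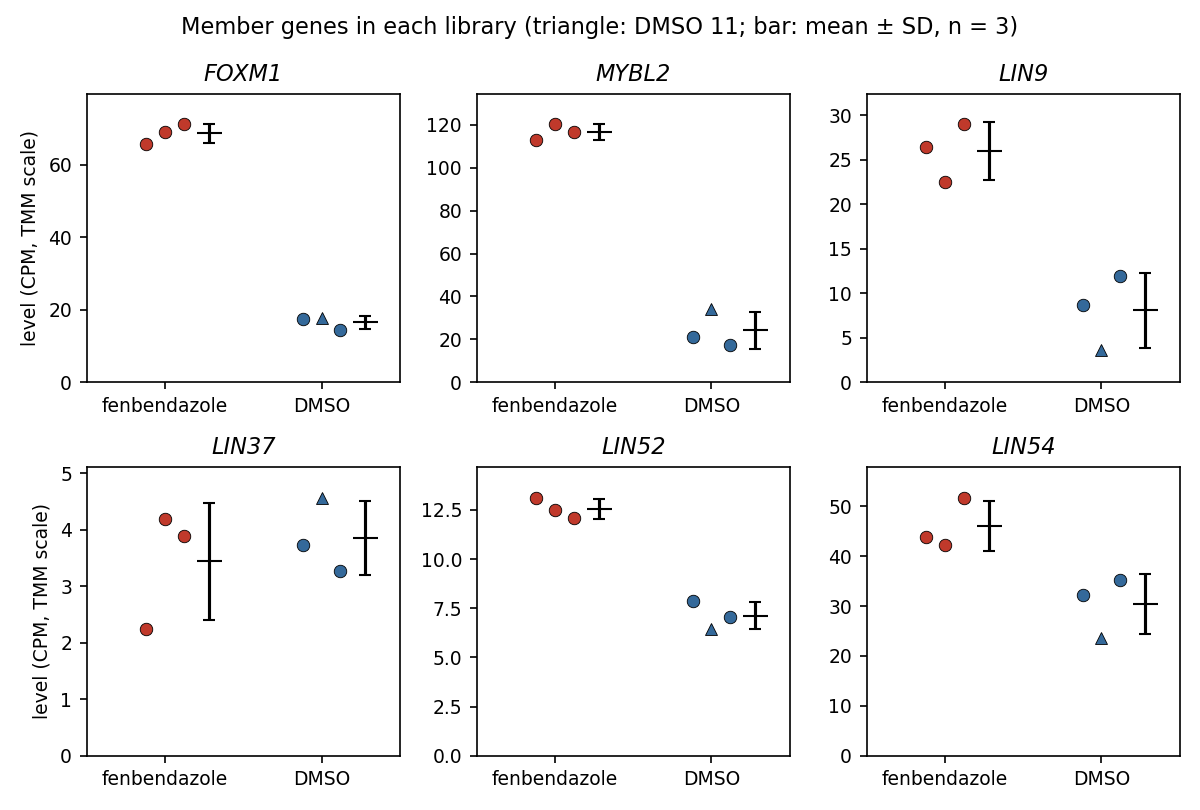
Level of each of the 6 genes in CPM on the TMM scale (vertical axis from 0, a separate scale per gene) in fenbendazole libraries (red) and DMSO libraries (blue, with a triangle for DMSO 11), and bars for mean ± SD, n = 3. FOXM1 sits at 65.7 to 71.1 CPM with fenbendazole and 14.5 to 17.6 CPM with DMSO, while the LIN37 points of the groups overlap.

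The plot of levels by library shows the 4 MuvB subunits beside the activators, with LIN9 changing most among the 4. Whether LIN9 differs from the activators was not tested. LIN9 (ENSG00000183814, chr1:226231149-226309869, minus strand) had 26.4, 22.5 and 28.97 CPM in fenbendazole 7, 8 and 9, against 8.64, 3.60 and 11.98 CPM in DMSO 10, 11 and 12. The groups did not overlap, but the DMSO libraries were widely spread, with DMSO 11 lowest. The means were 26.0 ± 3.25 CPM with fenbendazole and 8.07 ± 4.22 CPM with DMSO (SD, n = 3 each). The log2 fold change was 1.70 ± 0.400 (SE, edgeR adjusted p = 0.0641), which did not pass. Without DMSO 11 it was 1.35 and passed (adjusted p = 7.85e-05), and it passed too without DMSO 12 (0.0429).

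LIN52 (ENSG00000205659, chr14:74084956-74201493, plus strand) had 13.1, 12.5 and 12.1 CPM in fenbendazole 7, 8 and 9, against 7.86, 6.45 and 7.07 CPM in DMSO 10, 11 and 12. In CPM the groups stood apart with little spread in either. In FPKM they were more spread, at 5.49, 3.97 and 3.66 with fenbendazole, against 2.85, 2.17 and 3.29 with DMSO. The log2 fold change of 0.82 ± 0.188 (SE) missed the threshold (edgeR adjusted p = 0.0592) and was 0.76 without DMSO 11, where it passed (0.00781). LIN54 (ENSG00000189308, chr4:82909973-83012926, minus strand) had 44.0, 42.3 and 51.7 CPM with fenbendazole, against 32.2, 23.7 and 35.3 CPM with DMSO, in the same order of libraries. Its groups did not overlap, and DMSO 11 was again lowest. The log2 fold change was 0.60 ± 0.192 (SE, edgeR adjusted p = 0.134), and 0.46 without DMSO 11 (0.0130). LIN54 overlaps THAP9, a gene of the THAP zinc-finger family, over 9997 bases on the opposite strand, and the log2 fold change of THAP9 was 0.66 ± 0.314 (edgeR adjusted p = 0.269).

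LIN37 (ENSG00000267796, chr19:35748361-35754519, plus strand) rested on 34 to 66 counts per fenbendazole library and 44 to 104 per DMSO library. It had 2.25, 4.19 and 3.89 CPM in fenbendazole 7, 8 and 9, against 3.73, 4.56 and 3.27 CPM in DMSO 10, 11 and 12. The groups overlapped, with fenbendazole 7 lowest of all. The log2 fold change was -0.17 ± 0.314 (SE, edgeR adjusted p = 0.784), and it lay between -0.50 and 0.10 under the other settings. The deposited FPKM of LIN37 differed from its CPM, at 1.46, 2.57 and 2.47 FPKM with fenbendazole, against 3.18, 4.04 and 3.09 FPKM with DMSO. In FPKM the groups did not overlap, with a ratio of means of 0.630, but limma on log2(FPKM + 1) did not call it (-0.50, adjusted p = 0.191). A further protein-coding gene (ENSG00000188223) spans LIN37 on its strand over 6159 bases and held 42 counts in all 6 libraries together, and a long noncoding RNA on the other strand (ENSG00000267439) held 31. The small RNA genes and the pseudogene inside LIN52 and LIN54 held at most 6 counts each over all libraries.

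DMSO 11 moved the 6 genes in different directions. On the log2(CPM + 0.5) scale it lay above the mean of DMSO 10 and 12 by 0.81 for MYBL2, 0.34 for LIN37 and 0.14 for FOXM1. For LIN52, LIN54 and LIN9 the difference was -0.19, -0.50 and -1.38. The longest transcripts of the first 3 genes have a GC content of 55.6 to 60.5%, and those of the other 3 one of 39.1 to 43.6%. The part of GC content in these values was not tested beyond the fit with GC and length offsets. Without DMSO 11, 5 of 6 genes were called higher, LIN37 being the exception, but then 13.1% of 17689 tested genes were called higher and 9.23% lower. That fit drops the control farthest from the others, so its p-values may understate the spread between controls.

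**Figure D2:**
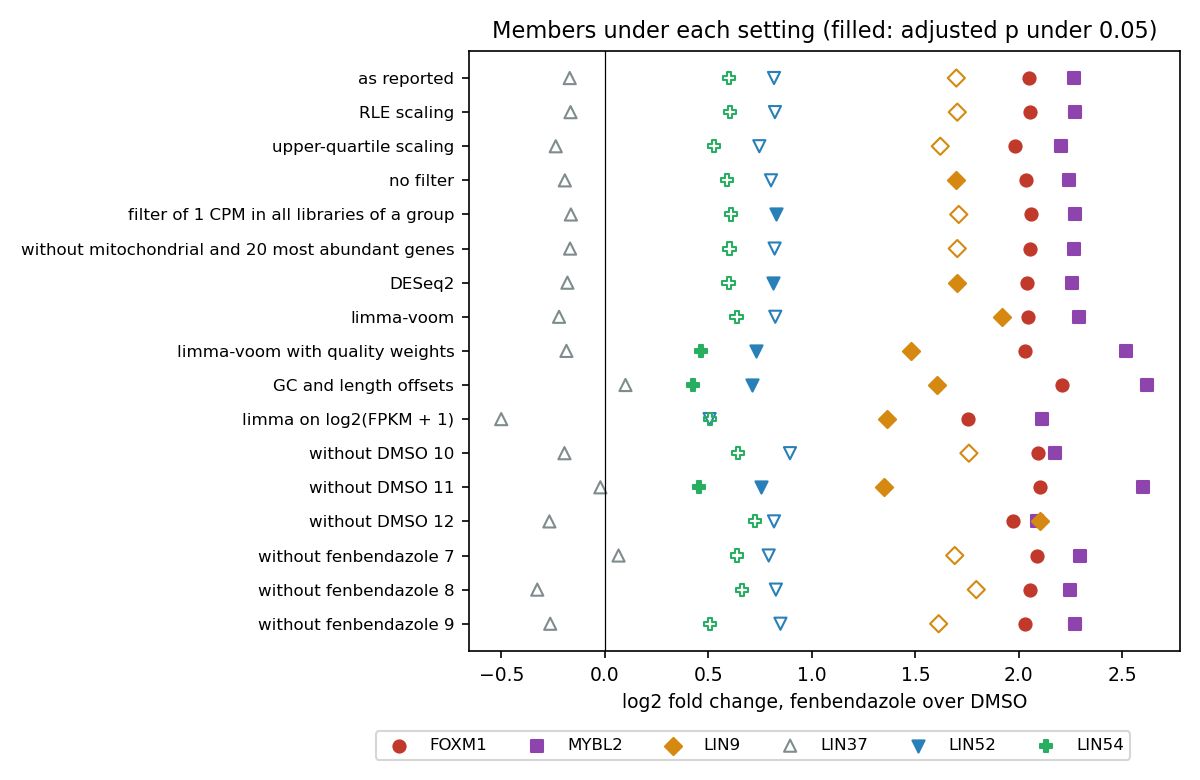
Log2 fold change of each of the 6 genes, fenbendazole over DMSO (horizontal axis), in the reported fit (top row) and in 16 other fits (rows below), with filled symbols where the adjusted p was under 0.05 and open symbols elsewhere. FOXM1 and MYBL2 are filled in every row, LIN9, LIN52 and LIN54 in some, and LIN37 in none.

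The plot of settings shows that the calls of the MuvB subunits depend on the fit, while the direction of LIN9, LIN52 and LIN54 does not. Among the 18 settings, which include a stricter threshold and a test against a 1.5-fold change, LIN9 passed in 8, LIN52 in 5 and LIN54 in 3. With DESeq2 the adjusted p was 0.000226 for LIN9 and 0.00723 for LIN52, and LIN54 did not pass. With offsets for GC content and length all 3 passed, at log2 fold changes of 1.60, 0.71 and 0.43. Over all genes, DESeq2 called 1004 higher and 722 lower of 39099 with counts. The offsets called 2182 higher and 1491 lower of 16975, and the reported fit 540 and 160 of 17363.

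Because longer transcripts give more reads, levels of different genes were compared in the authors' deposited FPKM (fragments scaled by transcript length and library size). With fenbendazole the order of FPKM levels was MYBL2 (37.2 ± 1.41), FOXM1 (17.3 ± 0.484), LIN54 (7.51 ± 0.367), LIN9 (7.29 ± 0.905), LIN52 (4.37 ± 0.982) and LIN37 (2.17 ± 0.615; SD, n = 3 each). LIN54 and LIN9 did not differ beyond their spread, and every other neighbour in this order was separated in all 3 libraries. With DMSO the order was MYBL2 (8.18 ± 3.27), LIN54 (5.05 ± 1.09), FOXM1 (4.46 ± 0.663), LIN37 (3.44 ± 0.527), LIN52 (2.77 ± 0.564) and LIN9 (2.37 ± 1.28), and the ranges of all neighbours overlapped. Within libraries FOXM1 lay above LIN37 in all 3 DMSO libraries, and each other neighbour pair kept its order in 2.

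The FPKM ratio of FOXM1 to LIN54 was 2.35, 2.35 and 2.24 in fenbendazole 7, 8 and 9, against 0.834, 1.33 and 0.638 in DMSO 10, 11 and 12. That of MYBL2 to LIN54 was 5.06, 5.19 and 4.63 with fenbendazole, against 1.27, 3.11 and 0.978 with DMSO. Both FPKM ratios were higher in every fenbendazole library than in any DMSO library, and DMSO 11 was the closest of the DMSO libraries. The ratio of MYBL2 to FOXM1 was 2.16, 2.21 and 2.07 with fenbendazole, against 1.52, 2.33 and 1.53 with DMSO, and here the groups overlapped.

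Whether the activators moved differently from the core was read from 1 value per library, the mean log2(CPM + 0.5) of FOXM1 and MYBL2 minus that of LIN9, LIN37, LIN52 and LIN54. It was 2.57, 2.55 and 2.42 in fenbendazole 7, 8 and 9, against 0.95, 1.70 and 0.63 in DMSO 10, 11 and 12. Every fenbendazole library was higher than every DMSO library. The core mean joins LIN9, at a log2 fold change of 1.70, with LIN37 at -0.17, so this value does not describe LIN9 alone. The difference of 1.42 had a two-sided exact permutation p of 0.1, the smallest that 3 against 3 libraries can give, so this design cannot pass 0.05. The difference was 1.72 without DMSO 11 and 1.5 in FPKM. Its exact permutation p was 0.1 without any 1 DMSO library and rose to 0.2 without any 1 fenbendazole library. In the latter fits DMSO 10 and 12 set against all other libraries differed by more than DMSO and fenbendazole did. DMSO 11 was the DMSO library nearest to fenbendazole on this value.

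Among the other parts of MuvB and DREAM, 3 of 8 tested genes passed. Of all tested genes 3.11% were called higher and 0.921% lower. RBL1, which encodes p107, and TFDP1, which encodes DP1, rose, and TFDP2, which encodes DP2, fell. RBL1 had 52.9, 48.1 and 58.0 CPM in fenbendazole 7, 8 and 9, against 32.4, 20.1 and 27.4 CPM in DMSO 10, 11 and 12, a log2 fold change of 0.99 ± 0.203 (SE, edgeR adjusted p = 0.0418). TFDP1 had 135, 132 and 131 CPM with fenbendazole, against 90.0, 93.0 and 91.2 CPM with DMSO, a log2 fold change of 0.54 ± 0.109 (0.0388). TFDP2 went the other way, at 86.7, 101 and 104 CPM with fenbendazole, against 156, 139.7 and 153 CPM with DMSO, a log2 fold change of -0.62 ± 0.128 (0.0421). Groups that did not overlap were found for these 3 of the 8 genes, and for 32.6% of all tested genes. Each call was lost when DMSO 10, DMSO 12 or any 1 fenbendazole library was left out (edgeR adjusted p of 0.0627 to 0.242).

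**Figure D3:**
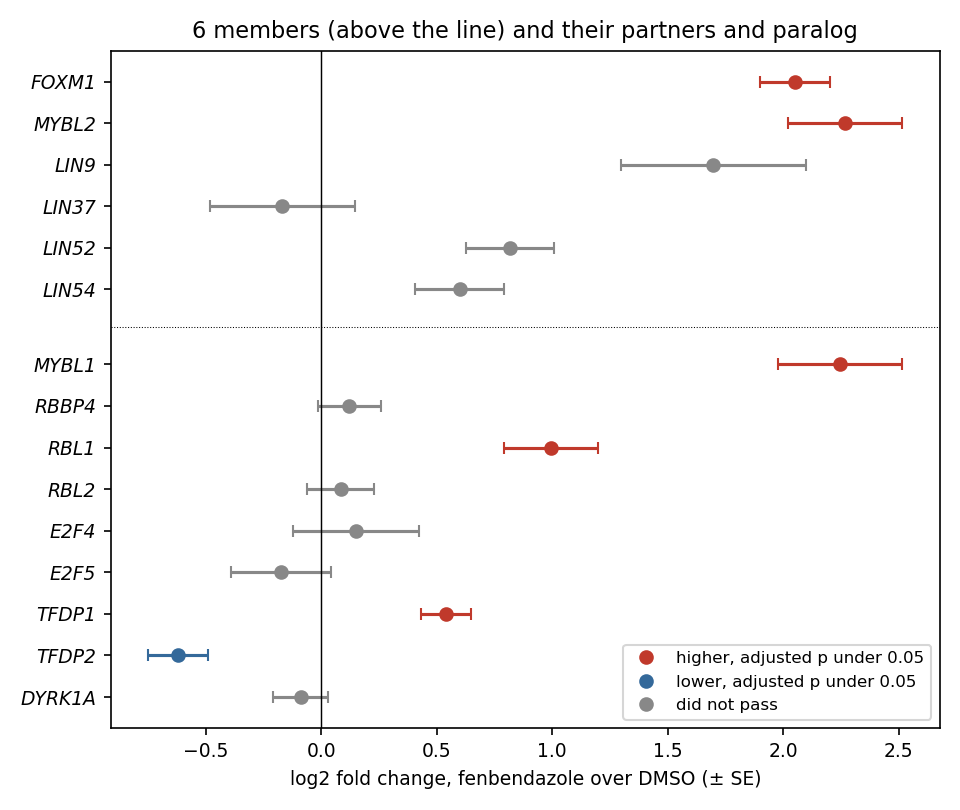
Log2 fold change ± SE, fenbendazole over DMSO (horizontal axis), of the 6 genes (above the dotted line) and of MYBL1 and the other MuvB and DREAM genes with DYRK1A (below it), in red or blue where the adjusted p was under 0.05. FOXM1, MYBL2 and MYBL1 lie between 2.05 and 2.27, and TFDP2 is the lower call at -0.62.

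RBBP4, a histone-binding protein and the remaining MuvB subunit, averaged 244 ± 15.6 CPM with fenbendazole and 224 ± 29.1 CPM with DMSO (SD, n = 3 each), a log2 fold change of 0.12 (edgeR adjusted p = 0.633). For RBL2, which encodes p130, the log2 fold change was 0.08 (0.766), and E2F4 and E2F5, the repressor E2F genes, had 0.15 and -0.17 (0.777 and 0.674). Without DMSO 11 both of these passed, E2F4 at 0.51 (0.0175) and E2F5 at -0.36 (0.0425), and with GC and length offsets they were 0.47 (0.0222) and -0.36 (0.0457). DYRK1A, the kinase that phosphorylates LIN52 to assemble DREAM, had -0.09 (0.694). The signs of RBBP4, RBL2, E2F4 and DYRK1A each changed under at least 1 other setting. As the plot of partners shows, these 5 changes were all within 0.2 of 0 on the log2 scale in the reported fit.

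MYBL1, which encodes A-MYB, a relative of B-MYB best known from male germ cells, rose as well. It had 95.0, 81.1 and 90.8 CPM in fenbendazole 7, 8 and 9, against 22.2, 11.5 and 22.7 CPM in DMSO 10, 11 and 12, groups far apart. The log2 fold change was 2.25 ± 0.267 (SE, edgeR adjusted p = 0.00563), and it passed under all 18 other settings, from 1.67 to 2.41. MYB, which encodes c-MYB, had 0, 7 and 0 counts with fenbendazole and 0, 0 and 5 with DMSO and was not tested.

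Of 40 genes known as targets of B-MYB, MuvB and FOXM1 in G2 and mitosis, 39 rose, with a median log2 fold change of 2.39 over the list and -0.06 over all tested genes. This list was chosen with the rise of mitotic genes in these data known, and its count is a description. AURKA, a mitotic kinase, averaged 166 ± 0.860 CPM with fenbendazole and 22.0 ± 2.20 CPM with DMSO, and KIF20A, a kinesin of cytokinesis, 126 ± 5.36 CPM with fenbendazole and 16.9 ± 2.15 CPM with DMSO. CKS2, a subunit of cyclin-dependent kinases, averaged 102 ± 2.27 CPM with fenbendazole and 15.7 ± 1.32 CPM with DMSO (SD, n = 3 each). The log2 fold changes were 2.91 for AURKA, 2.90 for KIF20A, 2.70 for CKS2, 2.55 for KIF4A, a kinesin of the spindle midzone, and 2.46 for CCNB1, which encodes cyclin B1, with edgeR adjusted p of 0.000484 to 0.000521. In the reported fit 3.11% of all tested genes were called higher and 0.921% lower. Without fenbendazole 7 or 9 the count was 25, while 139 of 18211 and 141 of 17774 tested genes were called higher. Without DMSO 11 the count was 39 higher and 1 lower, against 13.1% and 9.23% of all tested genes.

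CDC25B, a phosphatase of mitotic entry, was the 1 target that did not pass. It had 319, 349.6 and 339 CPM in fenbendazole 7, 8 and 9, against 410.3, 625 and 391.6 CPM in DMSO 10, 11 and 12. All fenbendazole libraries lay below all DMSO libraries, and DMSO 11 was the highest. The log2 fold change was -0.50 ± 0.192 (SE, edgeR adjusted p = 0.195), and without DMSO 11 it was -0.25 and passed (0.0119).

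**Figure D4:**
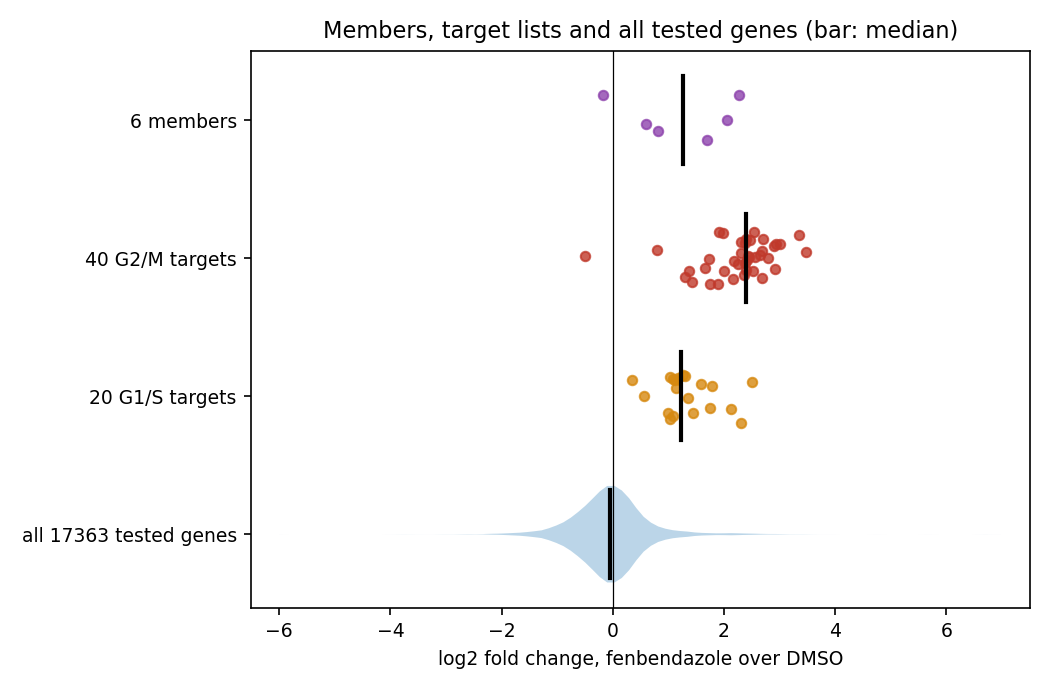
Log2 fold change, fenbendazole over DMSO (horizontal axis), of the 6 genes, 40 G2/M targets and 20 G1/S targets as points, and of all 17363 tested genes as a density, with a bar at each median. The medians are 1.26, 2.39, 1.22 and -0.06 in that order, and the G2/M point left of 0 is CDC25B.

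Of 20 genes known as E2F and DREAM targets at G1/S, 15 rose, with a median log2 fold change of 1.22. RRM2, a subunit of ribonucleotide reductase, had a log2 fold change of 2.14, TYMS, thymidylate synthase, 2.30, and CDC6, a loader of the replicative helicase, 1.78. MCM4, a subunit of that helicase, had 1.45 and PCNA, the sliding clamp, 1.27, each with an edgeR adjusted p of at most 0.00246. The 5 that did not pass were E2F1 (1.09, adjusted p = 0.0785), E2F2 (1.09, 0.0592), MCM2 (0.99, 0.0549), CCNE1 (0.56, 0.176) and CDT1 (0.35, 0.627). The reported fit called 3.11% of all tested genes higher. Without any 1 fenbendazole library 8 of 20 rose, while 139 to 144 of 17774 to 18291 tested genes were called higher. Without DMSO 11 it was 19, all but CCNE1, against 13.1% of all tested genes called higher and 9.23% lower. Whether the lists differ from each other was not tested.

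Of 15 genes whose products set the activity of FOXM1 and B-MYB, 7 rose, against 3.11% of all tested genes called higher. The list shares 6 genes with the target lists above, and 5 of the 7 that rose were already counted there, so CDK2 and MELK are the 2 it adds. CCNA2, which encodes cyclin A2, had a log2 fold change of 2.65 (edgeR adjusted p = 0.000671), and CCNB1 and PLK1, a kinase that phosphorylates FOXM1, had 2.46 and 2.31 (0.000521 and 0.00139). MELK, a kinase described as a FOXM1 partner, had 2.00 (0.00232), and CDK2 had 1.11 (0.00683). CDK1 (1.75, 0.0221) and CCNE2 (2.50, 0.0147) made up the 7. Without any 1 fenbendazole library 4 of the 15 rose, since the calls of CDK1, CDK2 and CCNE2 were lost (adjusted p of 0.0516 to 0.126). Without DMSO 10 it was 5, with CDK1 and CCNE2 lost. CCNF came closest to the threshold among those that did not pass (0.99, edgeR adjusted p = 0.0519). Without DMSO 11 CCNF was 1.19 and passed (0.000107), and it did not pass without any 1 other library. FZR1, an activator of the anaphase-promoting complex, had 21.2, 28.6 and 23.8 CPM in fenbendazole 7, 8 and 9, against 32.9, 70.7 and 21.4 CPM in DMSO 10, 11 and 12. It did not pass (-0.77, adjusted p = 0.317), and its log2 fold change was -0.15 without DMSO 11 (0.645). CDKN1A, which encodes the kinase inhibitor p21, had 15.6, 16.3 and 15.0 CPM with fenbendazole, against 11.9, 22.1 and 11.7 CPM with DMSO. DMSO 11 was the highest and DMSO 10 and 12 the lowest of all, with a log2 fold change of 0.04 (0.951) that was 0.42 without DMSO 11 (0.0705), and neither passed.

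The genes closest in pattern to each member were found from the Euclidean distance between log2(CPM + 0.5) profiles over the 6 libraries, each centred on its mean, among genes with a mean of at least 5 CPM. For FOXM1 these were EME1, a subunit of a structure-specific nuclease (distance 0.170), AMTN, amelotin of tooth enamel (0.230), and ZWINT, a kinetochore protein (0.242). For MYBL2 they were FOSL1, an AP-1 transcription factor gene (0.245), KIF18B, a mitotic kinesin (0.293), and PLK1 (0.296). These 6 genes each rose, with log2 fold changes of 1.89 to 2.41. Neighbours of every member were picked by their values in these same libraries, so a fold change close to the member's follows from the choice. Among the genes nearest to LIN9 were GEN1, a resolvase gene (0.296), and ATAD5, an unloader of PCNA (0.2998).

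LIN52 lay nearest to DUSP10, a phosphatase gene (0.0862), CCT5, a chaperonin subunit (0.0937), and RNF168, a ubiquitin ligase of the DNA damage response (0.111). LIN54 lay nearest to CPSF3, a nuclease of 3′ end processing (0.0862), TAF1B, a factor of ribosomal RNA transcription (0.115), and ADSS2, an enzyme of AMP synthesis (0.135). LIN37 lay nearest to CCDC12 (0.240), PMS2CL, a pseudogene of PMS2 (0.275), and TRIM35 (0.294). DUSP10, CCT5 and RNF168 passed the test with log2 fold changes of 0.73, 0.80 and 0.73. Each call was lost without any 1 fenbendazole library (edgeR adjusted p of up to 0.177, 0.0853 and 0.173). Of the 6 fits with 1 library left out, DUSP10 and RNF168 passed in 1 each and CCT5 in 3. The neighbours of LIN54 and LIN37 did not pass. Small changes place many genes close together, so a short distance in LIN52 or LIN54 says less than in FOXM1.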

How the data were processed

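Raw gene counts were used as deposited by the authors, with GRCh38 coordinates, and the deposited FPKM values, per the file headers, served only to compare genes. The upstream tools were edgeR, StringTie 1.3.4b, HISAT2 2.1.0 and CASAVA 1.8, per the submitters' processing notes. How reads were counted, with which strand setting and annotation, is not given in the sources used here. Counts were tested with edgeR 4.0.16 in R 4.3.3 (TMM, filterByExpr, robust quasi-likelihood F test, Benjamini-Hochberg over 17363 genes) and levels are CPM on the TMM scale. SE was derived from the F statistic. The fit was tested on simulated data. Other settings used limma 3.58.1, DESeq2 1.42.0, other scalings, filters and thresholds, GC and length offsets from GENCODE v29 (97.8% of tested genes), and each library left out. Named were all members, partners and overlapping genes, the 5 smallest p and up to 5 genes that did not pass in each target list, the 5 smallest p of the activity list, and 3 nearest patterns per member, of which 1 for LIN9 is not reported here. CDK1, CCNE2, CCNF, FZR1 and CDKN1A fall outside this rule and were chosen after their values were seen. Members and lists were chosen with earlier results of these data known. Of 61552 identifiers 61399 matched the name table. Total counts ran from 13170775 to 22128930. No replicate pair agreed within sampling noise. Python 3.11.15 with matplotlib 3.10.9 drew the figures.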

Additional observations from a re-analysis of the deposited data

How the results depend on the processing

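Called genes numbered 700 in all (540 higher, 160 lower). Upper-quartile scaling gave 455 higher and 231 lower and shifted all log2 fold changes downwards. DESeq2 gave 1726 calls among 39099 genes with counts, GC and length offsets 3673 of 16975 and quality weights 4587 of 17363. An adjusted p of 0.01 gave 210 and a test against a 1.5-fold change 214, each of 17363. Leaving out 1 library gave 147 to 3946 calls, the highest without DMSO 11, with 17689 to 18291 genes tested. Of the 6 genes of interest, 2 were called, against 4 with DESeq2 and 5 with GC offsets or quality weights, and 2 to 5 with a library left out. G2/M targets went to between 25 and 40 calls with a library left out and G1/S targets to between 8 and 19. A test against a 1.5-fold change gave 9 G1/S targets. Of the 8 DREAM partners, 3 were called, against 1 with upper-quartile scaling or FPKM, 0 at an adjusted p of 0.01 or against a 1.5-fold change, 5 with GC offsets and 0 to 5 with a library left out. Direction was compared for 55 genes, 30 of them called in the reported fit, and no call among these turned under the 18 settings. The difference between activators and core stayed between 1.19 and 1.72. No paired analysis was possible because no replicate number occurs in both groups' titles. Depth limits LIN37, at 34 to 104 counts per library. Gene-level values do not resolve isoforms, and transcript levels say nothing about protein or phosphorylation. The reason for the differences between fits was not tested.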
